A study of Mus musculus with 6 samples.

Results

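The culture baseline of 1 deletion experiment, numbered 20 in the labels, was set against that of the experiments numbered 18 and 19 of the same line of mouse epiblast stem cells (EpiSCs). Arrays were grouped by the experiment number in the sample name, 2 arrays for experiment 20 and 4 for experiments 18 and 19, which together are all 6 arrays of the series. Every experiment held 1 control and 1 Dicer-deleted sample, so the deletion was balanced between the groups and was kept as a covariate. Experiment 20 was singled out because earlier results on these same arrays showed that some lineage genes stood apart in it. Its difference from the others is therefore given below as a description, with no test, and a direction shared by both of its arrays is no separate evidence. By the rule used here, a gene was counted when its mean differed at least 2-fold and both arrays of experiment 20 lay beyond all 4 of the others. The rule counted 666 of 20193 genes, 368 higher in experiment 20 (1.82%) and 298 lower (1.48%).

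EpiSCs are the cultured form of the epiblast of the embryo just after implantation, kept in a primed pluripotent state by Activin and FGF. In the embryo this tissue forms the primitive streak, through which cells pass to become mesoderm and definitive endoderm, and at its front the node, whose cells carry motile cilia and give rise to the notochord. NODAL and WNT signals induce the streak, and secreted antagonists such as DKK1 and CER1 limit them. EpiSC cultures are known to hold cells that express streak and endoderm genes beside undifferentiated cells, in proportions that vary between cultures.

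All 6 samples were Dicer fx/fx EpiSCs, which carry floxed alleles of the ribonuclease gene that makes mature microRNAs. They were grown on serum-coated plates in a defined N2B29 medium to which Activin (20 ng/ml) and bFGF (12 ng/ml) had been added. The 3 Dicer-deleted samples had 0.3 µM 4-OH-tamoxifen for 3 days and then 2 days without it, and the 3 controls were plated and divided with them and had none, so that drug exposure and deletion cannot be told apart. The sources used here do not say whether the experiments differed in passage number, plating density, medium lot or day of hybridisation, so that culture, RNA preparation and array run cannot be told apart within an experiment. The deposited names of all 6 arrays end in the same number, whose meaning is not stated. The line is 1 line, and the samples are bulk cell pellets: more cells of a type and more RNA per cell cannot be told apart in any value below. RNA was measured on Affymetrix mouse gene arrays, 1 array per sample. Array medians of the linear intensity lay between 247.7 and 260.1. Over all genes, the 2 arrays of an experiment correlated at 0.991 to 0.996, arrays of experiment 18 with those of experiment 19 at 0.989 to 0.993, and arrays of experiment 20 with the other 4 at 0.971 to 0.983. The number of arrays limits the precision.

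The label was checked with markers. Pou5f1, the pluripotency factor OCT4, had an intensity of 7332 and 7636 in experiment 18, 6348 and 6799 in experiment 19 and 7477 and 6268 in experiment 20. Otx2, a factor of the epiblast, was at 6438 and 7598 in experiment 18, 6014 and 6909 in experiment 19 and 7363 and 5709 in experiment 20, and the groups overlapped for both genes. Not all EpiSC markers overlapped. Nanog was counted as lower, at 5106 and 6223 in experiment 18, 6962 and 6810 in experiment 19 and 4518 and 1915 in experiment 20. Sox2, Fgf5, Dnmt3b and Cdh1 were not counted, and their differences are given further below. Dicer1 was at 1836 and 602 in experiment 18, 2079 and 553 in experiment 19 and 2098 and 645 in experiment 20, so that each array followed its deletion label, although the sources used here do not say which exons its probes read; the control arrays of the 3 experiments were within 1.14-fold of each other. In the text, intensities are linear array units, with the control before the Dicer-deleted array of each experiment. A difference is log2 experiment 20 minus experiments 18 and 19, with the SE of a limma fit that has deletion as a covariate (2 arrays against 4), and a fold is its antilog. Levels of different genes are not compared, because probe sets differ in brightness.

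**Figure D1:**
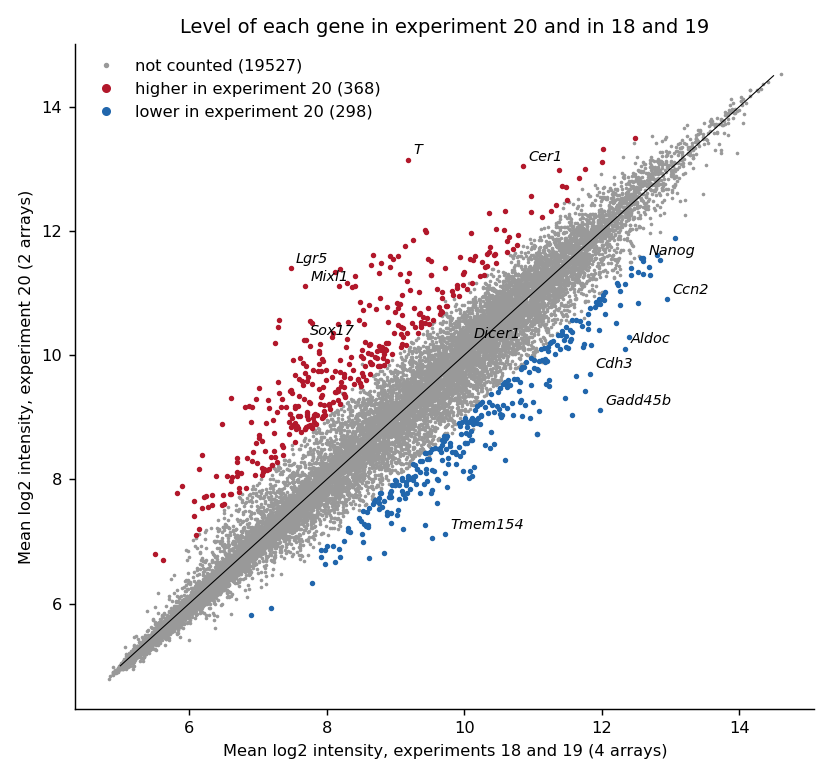
Mean log2 intensity of each of 20193 genes in experiment 20 (vertical axis, 2 arrays) against experiments 18 and 19 (horizontal axis, 4 arrays), with the line of equal levels. The 368 genes counted as higher are red and the 298 counted as lower are blue; T lies 15.6-fold above the line and Gadd45b 7.27-fold below it.

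The largest positive differences belonged to genes of the primitive streak and of the signals around it. T, which encodes Brachyury, the T-box factor of the streak and notochord, was at 348 and 1012 in experiment 18, 271 and 1199.8 in experiment 19 and 7004 and 11797 in experiment 20, a difference of 3.97 ± 0.27. Mixl1, a homeobox factor of streak cells bound for endoderm and mesoderm, was at 187 and 159 in experiment 18, 216 and 281 in experiment 19 and 3673 and 1335 in experiment 20, a difference of 3.42 ± 0.41. Both arrays of experiment 20 were far above the other 4 for each gene. They were 18.3-fold higher between controls and 6.31-fold between deleted arrays for Mixl1. For T the within-genotype folds were 22.8 and 10.7, and T was also higher in the deleted than in the control array of each experiment. Lhx1, a LIM homeobox factor of the organizer, was at 254 and 315 in experiment 18, 553 and 625 in experiment 19 and 4566 and 2162 in experiment 20. Its level was high in experiment 20, lowest in experiment 18 and between them in experiment 19.

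Of the 28 measured members of a list of streak and mesendoderm genes, 12 were counted as higher and 1 as lower, with a median difference of 0.40, against -0.02 over all genes. Over all genes 1.82% were counted as higher and 1.48% as lower, which is the base for every list count below. Beside T, Mixl1 and Lhx1 the higher members were Foxa2, the forkhead factor of node and endoderm (2.93 ± 0.15), Rspo3, a secreted enhancer of WNT signals (2.73 ± 0.20), Cer1 (2.18 ± 0.70), the T-box gene Eomes (1.99 ± 0.23) and the organizer homeobox gene Gsc (1.82 ± 0.34). The other 4 were the NODAL inhibitor gene Lefty2 (1.55 ± 0.60), the WNT target Sp5 (1.47 ± 0.11), the BMP antagonist gene Nog (1.21 ± 0.34) and the Notch ligand gene Dll3 (1.18 ± 0.20). The lower member was Fgf4 (-1.47 ± 0.14), a ligand made by undifferentiated epiblast as well as streak. Genes of later streak and of mesoderm were not among them. Mesp1, the factor of early cardiac mesoderm, stood at -0.10 ± 0.07, Tbx6 of paraxial mesoderm at -0.11 ± 0.28 and Evx1 of the posterior streak at 0.12 ± 0.08. In the mesoderm list 2 of 25 were counted as higher, the receptor gene Pdgfra (1.48 ± 0.15) and Lmo2 (1.02 ± 0.10), with a median of 0.05. HOX genes, which mark position along the body axis, had 0 of 21 counted; the largest differences were 0.22 ± 0.10 for Hoxb2 and 0.20 ± 0.11 for Hoxb9. Levels summed over the streak list were 13.61 and 13.85 on the log2 scale in experiment 18, 14.12 and 14.28 in experiment 19 and 15.50 and 15.51 in experiment 20.

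The promoter of T is shown because T has the largest difference of all genes, and that of Dkk1 because it encodes a WNT inhibitor and holds the same motif. Both come from RefSeq, build GRCm38.p6, first listed start of each gene, from 250 bases before to 50 after the start. Capitals mark CTTTGAA on either strand, letters that the TCF and LEF factors of the WNT pathway are known to bind. The T promoter is chr17:8434173-8434472 on the plus strand and the Dkk1 promoter chr19:30549447-30549746 on the minus strand.
T: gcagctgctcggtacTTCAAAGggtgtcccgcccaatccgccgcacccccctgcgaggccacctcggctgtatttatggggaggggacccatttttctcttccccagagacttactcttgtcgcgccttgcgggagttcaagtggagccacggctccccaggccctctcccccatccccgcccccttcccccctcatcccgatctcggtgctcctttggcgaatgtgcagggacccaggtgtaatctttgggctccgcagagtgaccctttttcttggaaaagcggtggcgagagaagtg
Dkk1: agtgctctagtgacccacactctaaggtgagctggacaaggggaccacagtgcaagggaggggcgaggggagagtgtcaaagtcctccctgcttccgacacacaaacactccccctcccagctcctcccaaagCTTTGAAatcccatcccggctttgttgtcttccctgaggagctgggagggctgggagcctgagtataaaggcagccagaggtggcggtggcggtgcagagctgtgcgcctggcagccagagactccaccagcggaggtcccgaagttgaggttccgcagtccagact
The letters occur once in each window, on the minus strand of the T promoter and the plus strand of that of Dkk1, relative to transcription. They occur in 5.27% of all 27025 promoters of this length. A match is no proof of a bound site. A check of the share among counted genes is void, because no more than 272 of the 368 higher and 218 of the 298 lower genes have a promoter in the table.

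Genes of definitive endoderm, the gut-forming layer, were high with those of the streak. Sox17, an HMG-box factor needed for this layer, was at 161 and 167 in experiment 18, 206 and 314 in experiment 19 and 1110.3 and 1315 in experiment 20, a difference of 2.56 ± 0.27. Foxa2 was at 234 and 284 in experiment 18, 312 and 344 in experiment 19 and 1944 and 2529 in experiment 20. Cxcr4, a chemokine receptor found on endoderm cells, was at 168 and 161 in experiment 18, 259 and 319 in experiment 19 and 1736 and 1285 in experiment 20. The lowest array of experiment 20 was above the highest of the other 4 for all 3 genes by at least 3.53-fold. Members such as Foxa2 and Cer1 are on both the endoderm and the streak list, so the counts of these lists are not independent. Of 26 measured endoderm genes 11 were counted as higher and 0 as lower, with a median of 0.56. The median was 1.04 between controls and 0.25 between deleted arrays. Spink1, a protease inhibitor gene, was at 2.30 ± 0.41, the forkhead gene Foxa1 at 2.24 ± 0.14, Gata6 at 2.23 ± 0.47, the receptor gene Kit at 2.20 ± 0.19, Prdm1 at 1.88 ± 0.36 and the homeobox gene Hhex at 1.78 ± 0.19. Genes of differentiated gut and liver were not counted, among them Afp (-0.02 ± 0.06), Ttr (0.00 ± 0.06) and Hnf4a (0.02 ± 0.09).

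Extraembryonic endoderm shares part of this program, so its list was read beside it. There 4 of 24 were counted as higher, Sox17, Gata6, Plat (1.86 ± 0.15) and Pdgfra, with a median of 0.13. Sox7, which marks extraembryonic but not definitive endoderm early on, was at 134 and 118 in experiment 18, 132 and 114 in experiment 19 and 138 and 120.2 in experiment 20, and the groups overlapped. Its summed level was 14.42 to 14.54 in experiments 18 and 19 and 14.56 in both arrays of experiment 20. Trophectoderm genes had 1 of 19 counted, Eomes, which the streak shares, with a median of 0.07. Elf5 was at 96.2 and 101 in experiment 18, 90.8 and 89.3 in experiment 19 and 98.8 and 89 in experiment 20. Fibroblast and feeder genes had 0 of 24 counted as higher and 1 as lower, Ccn2, with a median of 0.06. Col1a1 was at -0.10 ± 0.06 and Lum at 0.11 ± 0.06. The part of these other cell types in the difference was not tested.

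**Figure D2:**
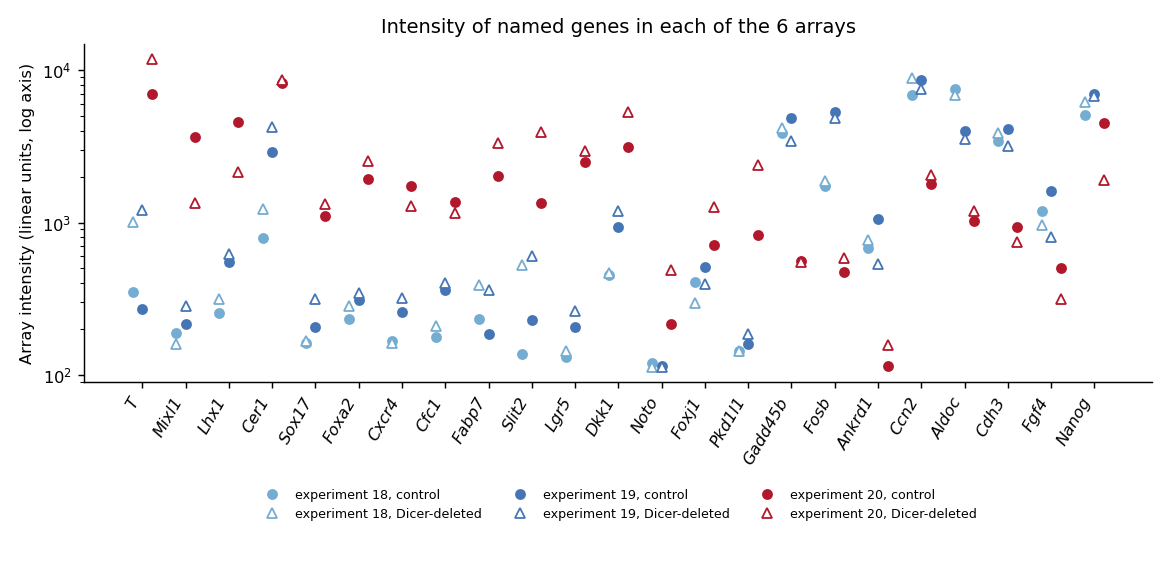
Linear array intensity (log axis) of 23 named genes in each of the 6 arrays. Filled circles are controls and open triangles Dicer-deleted samples; light blue is experiment 18, dark blue 19 and red 20. The red points lie above all blue points for the genes from T to Pkd1l1 and below them from Gadd45b to Nanog.

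Signals of the NODAL pathway differed at the coreceptor and the inhibitors. Cfc1, an EGF-CFC coreceptor for NODAL that is known for setting the left-right axis, was at 177 and 208 in experiment 18, 359 and 403 in experiment 19 and 1366 and 1158 in experiment 20, a difference of 2.22 ± 0.39. Cer1, which encodes a secreted antagonist of NODAL, BMP and WNT ligands, was at 786 and 1230.5 in experiment 18, 2915 and 4241 in experiment 19 and 8222 and 8651 in experiment 20, and Lefty2 at 75 and 88.8 in experiment 18, 178 and 272 in experiment 19 and 503 and 307 in experiment 20. Both inhibitors were higher in experiment 19 than in experiment 18 as well, with Lefty2 the least separated of the 3. Of 26 measured members these 3 were the ones counted as higher, and 0 were lower; the median was -0.06. The ligand gene Nodal itself stood at -0.03 ± 0.29 and the coreceptor gene Tdgf1 at 0.64 ± 0.32. Smad7, an inhibitor of the pathway that it induces, was at 1537 and 2200.3 in experiment 18, 2042 and 2612 in experiment 19 and 1669.8 and 611 in experiment 20, so that 1 array of experiment 20 lay apart from the other 5.

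WNT genes were higher at ligand modulators and receptors. Lgr5, a receptor for R-spondins and a WNT target, was at 130.2 and 144 in experiment 18, 206 and 260.5 in experiment 19 and 2492 and 2932 in experiment 20, a difference of 3.92 ± 0.29. Frzb, a secreted WNT antagonist gene, was at 101 and 117 in experiment 18, 191 and 282 in experiment 19 and 1490.1 and 1532 in experiment 20. Dkk1 was at 449.9 and 466 in experiment 18, 940.3 and 1197 in experiment 19 and 3117 and 5298 in experiment 20. For each of these 3 genes experiment 18 was lowest, 19 was between and 20 was highest in both genotypes. Of 35 measured members 8 were counted as higher and 0 as lower, with a median of 0.17. The other 5 were Rspo3, the ligand gene Wnt8a (1.97 ± 0.17), the receptor gene Fzd8 (1.87 ± 0.24), Sp5 and the antagonist gene Sfrp1 (1.17 ± 0.47). The streak ligand genes Wnt3 (0.02 ± 0.12) and Wnt3a (0.03 ± 0.07) were not counted, nor were the feedback target Axin2 (0.40 ± 0.11) and the mediators Lef1 (0.48 ± 0.11) and Tcf7 (-0.53 ± 0.13).

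Fewer genes of the BMP and FGF lists were counted. Bmp2, a BMP ligand gene, was at 257 and 474 in experiment 18, 485 and 648 in experiment 19 and 2447 and 3349.7 in experiment 20, and with Bmp7 (1.22 ± 0.21) and Nog it made 3 of 24 counted as higher, with 0 lower and a median of 0.09. A second, dimmer probe set of Bmp7 gave a difference of 0.19. The BMP target Id1 stood at -0.60 ± 0.35 and Id3 at 0.53 ± 0.62. In the FGF list 4 of 25 were higher, the feedback inhibitor gene Spry4 (1.38 ± 0.21), the phosphatase gene Dusp4 (1.18 ± 0.30), the ligand gene Fgf10 (1.13 ± 0.30) and the target Etv4 (1.06 ± 0.26). The 2 lower members were Fos (-1.97 ± 0.29), an immediate early gene, and Fgf4. The median was 0.10.

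Other large positive differences fell outside these lists. Aplnr, the apelin receptor gene of early mesendoderm, was at 244 and 309 in experiment 18, 239.7 and 411 in experiment 19 and 1096 and 6586 in experiment 20, and its ligand gene Apln at 362 and 353 in experiment 18, 332 and 317 in experiment 19 and 2192 and 2776 in experiment 20. Receptor and ligand were both above the other 4 arrays, and the deleted array of experiment 20 was the highest for Aplnr by a wide margin. Pkd1l1, a channel gene of node cilia, was at 143 and 143 in experiment 18, 159.6 and 184 in experiment 19 and 829 and 2381 in experiment 20. Hsd11b2, which encodes an enzyme that inactivates glucocorticoids, differed by 2.70 ± 0.38, and St6gal2, a sialyltransferase gene, by 2.74 ± 0.50. These with Fabp7 and Slit2 complete the 15 largest among protein-coding genes with a standard name. In all, 69 of the 368 higher genes were at least 4-fold higher and 7 at least 8-fold.

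Fabp7 and Slit2 are known from neural tissue, and most other neural genes were not counted. Fabp7, a fatty acid binding protein gene of radial glia, was at 233 and 388 in experiment 18, 185 and 361 in experiment 19 and 2011 and 3326 in experiment 20, a difference of 3.21 ± 0.11. Slit2, which encodes a secreted axon repellent that acts on ROBO receptors, was at 138 and 525 in experiment 18, 227 and 602 in experiment 19 and 1349 and 3907 in experiment 20, a difference of 2.86 ± 0.21. Both were high in both arrays of experiment 20, and in every experiment the deleted array was above its control. Fabp7 was the 1 gene counted of 29 measured neural and radial glia genes, whose median was -0.01. Sox1 was at 405 and 352 in experiment 18, 419.7 and 490.0 in experiment 19 and 381 and 381 in experiment 20 and Pax6 at 114 and 111 in experiment 18, 129 and 148 in experiment 19 and 117 and 118 in experiment 20, early neural factors whose groups overlapped, and Nes stood at -0.61 ± 0.28 and Sox3 at -0.84 ± 0.16. Among 18 guidance genes 3 were higher, Slit2, Slit3 (2.15 ± 0.10) and the netrin gene Ntn1 (2.26 ± 0.13), and 1 was lower, the netrin receptor gene Unc5a (-1.17 ± 0.24), with a median of 0.13. The ROBO receptor genes Robo1 (-0.06 ± 0.10) and Robo2 (0.34 ± 0.13) were not counted. Slit2, Slit3 and Ntn1 are also expressed outside the nervous system, in the midline of the embryo among other places.

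Pattern over the 6 arrays was compared with that of Mixl1 among the 368 higher genes. The most similar were Eomes (r = 0.9995), the homeobox gene Six2 (r = 0.9964), Hhex (r = 0.9934), the secretion gene Cadps2 (r = 0.9932) and Aif1l (r = 0.9917), each over 6 arrays that the counting rule had already split into 4 low and 2 high. Eomes was at 724 and 622 in experiment 18, 755 and 863 in experiment 19 and 3973 and 2146 in experiment 20 and Six2 at 188 and 173 in experiment 18, 187 and 223 in experiment 19 and 687 and 494 in experiment 20. As with Mixl1, the control array of experiment 20 was above its deleted array for all 5, which follows largely from choosing them by likeness to Mixl1.

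The microRNA precursor genes of the miR-302 and miR-367 cluster were among the higher genes. This cluster is the main one of primed pluripotent cells and is transcribed as 1 primary RNA, so that its 5 probe sets are not independent. Of the 5 precursor genes all are in the RefSeq table, and the mature 3p sequences are shown for 4 of them, with the seed (bases 2 to 8), which pairs with targets, in capitals (GRCm38.p6, chromosome 3, plus strand). The 3p sequence of miR-302a is not shown.
miR-302b-3p: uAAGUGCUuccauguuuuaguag
miR-302d-3p: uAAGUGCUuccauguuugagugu
miR-302c-3p: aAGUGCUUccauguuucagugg
miR-367-3p: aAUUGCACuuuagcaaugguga
miR-302b and miR-302d share the seed AAGUGCU, miR-302c is listed with a start 1 base later and the seed AGUGCUU, and miR-367 has another seed, AUUGCAC.
Mir302b was at 729 and 1352 in experiment 18, 424 and 539 in experiment 19 and 3254 and 5242 in experiment 20, a difference of 2.58 ± 0.41. Mir367 was at 151 and 326 in experiment 18, 91.2 and 119.7 in experiment 19 and 890.4 and 1562 in experiment 20, a difference of 2.95 ± 0.43. Both were high in both arrays of experiment 20, and the deleted array was above its control in every experiment. The differences of Mir302a, Mir302c and Mir302d were 2.80, 2.59 and 2.59. Larp7, the gene whose locus holds the cluster on the other strand, differed less, at 3488 and 5311 in experiment 18, 4139 and 5310.4 in experiment 19 and 5860.1 and 7131 in experiment 20 (0.53 ± 0.10). The sources used here do not say whether these probe sets read primary, precursor or mature RNA.

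On the lower side stood genes of stimulus response, adhesion and glucose use. Gadd45b, a stress-inducible gene, had the largest negative difference, at 3844 and 4168 in experiment 18, 4874 and 3406 in experiment 19 and 558 and 553 in experiment 20, or -2.86 ± 0.14. Fosb, an immediate early gene of the AP-1 family, was at 1734 and 1868 in experiment 18, 5344 and 4882 in experiment 19 and 475 and 587 in experiment 20. Both arrays of experiment 20 were low for each gene, and for Fosb experiment 19 was above experiment 18. Ankrd1 and Ccn2, which are known targets of the YAP and TEAD factors, were at -2.47 ± 0.29 and -2.05 ± 0.13. Ccn2 was at 6868 and 8929.7 in experiment 18, 8641 and 7504 in experiment 19 and 1784 and 2059 in experiment 20. The transmembrane gene Tmem154 was at -2.61 ± 0.24, the endocytic receptor gene Lrp2 at -2.34 ± 0.31, the phosphodiesterase gene Pde1b at -2.32 ± 0.09 and the fatty acid binding protein gene Fabp3 at -2.32 ± 0.50. Sema3c, a guidance ligand gene, was at -2.29 ± 0.30, Adam23 at -2.14 ± 0.24, Got1l1 at -2.15 ± 0.37, the NAD synthesis gene Nmnat2 at -2.06 ± 0.24 and the lipase gene Lipg at -2.05 ± 0.40. Of the 298 lower genes 18 were at least 4-fold lower and 0 at least 8-fold.

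Epithelial genes leaned lower by their median. Cdh3, which encodes P-cadherin, was at 3429 and 3902 in experiment 18, 4111 and 3171 in experiment 19 and 936 and 743 in experiment 20, a difference of -2.12 ± 0.13. Of 26 measured epithelial genes 3 were counted as lower, with the claudin gene Cldn4 (-1.47 ± 0.40) and the tight junction gene Tjp3 (-1.32 ± 0.18), and 0 as higher; the median was -0.26. Cdh1, the E-cadherin gene, stood at -0.40 ± 0.06 and Ocln at -0.81 ± 0.28. Levels summed over the epithelial list were 15.775 and 15.72 on the log2 scale in experiment 18 and 15.761 and 15.591 in experiment 19. They were 15.579 and 15.739 in experiment 20, so that the groups overlapped. In the list of the mesenchymal switch 1 of 18 was higher, Cdh2, the N-cadherin gene, at 1315 and 2012 in experiment 18, 1134 and 1931 in experiment 19 and 4336 and 6107 in experiment 20, and the median was 0.09. Snai1 (0.05 ± 0.23) and Twist1 (-0.18 ± 0.09), inducers of that switch, were not counted. Matrix genes had 2 of 23 higher, the integrin gene Itga8 (1.99 ± 0.22) and the vitronectin gene Vtn (1.52 ± 0.23), and 2 lower, Spon1 (-1.44 ± 0.23) and the perlecan gene Hspg2 (-1.25 ± 0.18), with a median of -0.0046.

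Genes of glycolysis and the hypoxia response had negative differences in all but 3 of 28 measured members. Aldoc, an aldolase gene, was at 7516 and 6908 in experiment 18, 3966 and 3513 in experiment 19 and 1023 and 1182 in experiment 20, a difference of -2.24 ± 0.37. Pfkp, a phosphofructokinase gene, was at 1948 and 2173 in experiment 18, 847 and 883 in experiment 19 and 315 and 418 in experiment 20. For both, experiment 18 was highest, 19 was between and 20 was lowest. In the list 4 of 28 were counted as lower, with the oxidative folding gene Ero1a (-1.41 ± 0.37) and the oxygen sensor gene Egln3 (-1.28 ± 0.16), and 0 as higher; the median was -0.45. Gapdh (0.01 ± 0.06), Ldha (0.08 ± 0.08) and Eno1 (-0.03 ± 0.07) were not counted. Oxidative phosphorylation genes had 0 of 24 counted and a median of 0.10, led by Cox7a2 (0.31 ± 0.06) and Cox5b (0.29 ± 0.10). Sterol and fatty acid genes had 0 of 25 counted and a median of -0.12, with Insig1 at -0.62 ± 0.09 and Mvk at 0.53 ± 0.23.

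Pluripotency genes differed little as groups. In the core list 1 of 21 was lower, Nanog, and 1 higher, Myc, with a median of 0.07. Nanog was at 5106 and 6223 in experiment 18, 6962 and 6810.3 in experiment 19 and 4518 and 1915 in experiment 20, where the control array of experiment 20 lay close to control 18 and the deleted array well below all others. Myc was at 850.0 and 1154 in experiment 18, 1647 and 1497 in experiment 19 and 3737 and 1672 in experiment 20, where the control array of experiment 20 lay well above all others and the deleted array just above them. Sox2 stood at 0.47 ± 0.25. Naive genes had 1 of 24 higher, the LIF receptor gene Lifr (1.27 ± 0.18), and 1 lower, Fgf4, with a median of -0.04; Zfp42 was at -0.02 ± 0.09 and Esrrb at -0.17 ± 0.14. The primed list had 7 of 28 higher and a median of 0.22, but 5 of the 7 are also streak or endoderm genes (T, Foxa2, Cer1, Eomes) or N-cadherin; Fgf5 was at 0.70 ± 0.41 and Dnmt3b at 0.24 ± 0.29. Germ cell genes had 4 of 19 higher, Kit, Prdm1, Ifitm1 (1.93 ± 0.51) and Ifitm3 (1.32 ± 0.08), and a median of 0.02; Dazl was at 0.03 ± 0.06 and Ddx4 at -0.39 ± 0.18. Of the 2-cell-like list 0 of 5 were counted (median 0.01), with Eif1a at 0.31 ± 0.16 and Zfp352 at -0.16 ± 0.13.

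The remaining lists held 0 to 4 counted genes each, where 1.82% of all genes were counted as higher and 1.48% as lower. In the interferon response 4 of 24 were higher, Gbp2 (2.12 ± 0.29), the RNA sensors Ifih1 (1.35 ± 0.30) and Ddx58 (1.12 ± 0.20) and Ifitm3, with a median of 0.24 that was 0.06 between controls and 0.46 between deleted arrays. Imprinted genes had 2 of 22 higher, Ndn (2.02 ± 0.13) and Peg10 (1.11 ± 0.12), and a median of -0.05. Proliferation genes had 1 of 24 higher, the cyclin gene Ccnd1 (1.10 ± 0.37), and a median of -0.10. The p53 targets had 2 of 23 lower, Sesn1 (-1.24 ± 0.30) and Btg2 (-1.09 ± 0.31), and a median of -0.16. Genes of the integrated stress response had 1 of 22 lower, Atf3 (-1.20 ± 0.38), and a median of 0.11. Of 12 genes of microRNA processing 0 were counted (median -0.11), with the argonaute genes Ago4 at -0.89 ± 0.29 and Ago2 at -0.69 ± 0.07. Y-linked genes and Xist had 0 of 8 counted and a median of -0.01, with Eif2s3y at 0.44 ± 0.08 and Uty at 0.21 ± 0.14; Y-linked genes were read in all 6 arrays.

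**Figure D3:**
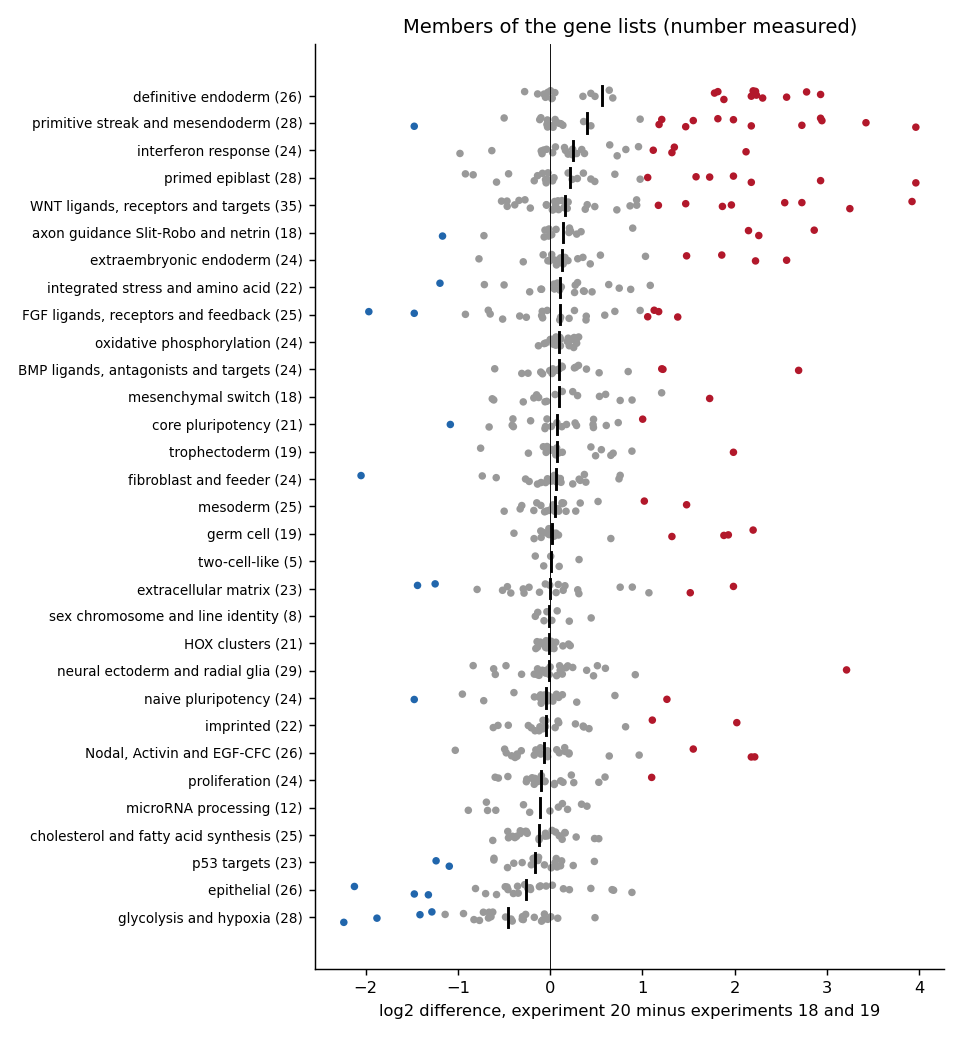
Difference of experiment 20 from experiments 18 and 19 (log2, horizontal axis) for each measured member of 31 gene lists, sorted by the list's median (black bar). Red points were counted as higher and blue ones as lower. The highest median is 0.56, of definitive endoderm, and the lowest is -0.45, of glycolysis and hypoxia.

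Pairwise counts show how far each experiment stood from the others. At least 2-fold in both genotypes, 332 genes were higher (1.64%) and 271 lower (1.34%) in experiment 20 than in 18, and 197 higher (0.976%) and 159 lower (0.787%) than in 19. Between experiments 19 and 18 the counts were 20 higher (0.099%) and 23 lower (0.114%). Experiment 20 was set apart with such differences in view, so that the order of these counts is a description. Near the 2-fold limit, 76 genes whose groups did not overlap lay within 0.05 above it and 107 within 0.05 below it. Slc27a2 was just inside at 1.0001 and Npl just outside at 0.9997 on the higher side, and Itpr1 at -1.0006 and Syt17 at -0.9995 on the lower. Without the fold limit, 3521 genes were higher and 4052 lower in both arrays of experiment 20 than in all 4 others.

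A contrast that the grouping did not use is that of experiment 19 with 18, tested with limma over all genes with 3 experiments and deletion in the fit. At an adjusted p under 0.05, 0 of 20193 genes were called (0%), and 3698 had an unadjusted p under 0.05, of which 1983 were higher in 19 and 1715 lower. The 3 genes with the smallest p had an adjusted p of 0.0606. Ndrg1, a hypoxia and stress gene, was at 6787 and 6436 in experiment 18, 2348 and 2508 in experiment 19 and 2678 and 2527 in experiment 20 (-1.45 ± 0.08, 19 minus 18). Greb1 was at 162 and 168 in experiment 18, 359 and 389 in experiment 19 and 716 and 717 in experiment 20 (1.18 ± 0.07) and St6gal2 at 172 and 253 in experiment 18, 404 and 671 in experiment 19 and 1868 and 2599 in experiment 20 (1.32 ± 0.09). For Ndrg1 experiment 20 stood with 19, and for Greb1 and St6gal2 it stood beyond 19. The fit takes the control and deleted arrays of an experiment as its replicates, although each experiment is 1 culture run and its arrays deviated together, so that its p-values hold no spread between runs. Once 1 array of experiment 20 is left out, the other is fitted exactly. Both such fits are therefore the same fit to the arrays of experiments 18 and 19. Without either 1 of the arrays of experiment 20, limma called 2752 genes, without each of the other 4 arrays it called 0, and it called 115 among the brighter genes that reach the median level and 96 with trend and robust settings.

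Whether genes responded otherwise to deletion in experiment 20 was tested as an interaction. The experiment number pairs the arrays, since the labels say that control and deleted cells were plated and divided together, and with it as a block the limma fit has 1 residual degree of freedom. That degree of freedom is the difference between the changes in experiments 18 and 19. Experiment 20 gives 1 deletion change and no spread of its own, so the blocked calls assume that it varies as the other 2 do. Without the block 0 of 20193 genes were called (0%; smallest adjusted p 0.692) and 958 had an unadjusted p under 0.05, of which 615 had a more positive change in experiment 20. With the block 381 were called, 261 with a more positive (1.29%) and 120 with a more negative change (0.594%). Of the 368 higher genes 57 were among the 261 and 29 among the 120, and of the 298 lower genes 23 and 6. The 3 smallest p without the block belonged to Pcsk1, a hormone-processing protease gene, Tmem255a and Slc44a5. Pcsk1 was at 101 and 88.2 in experiment 18, 98.3 and 104 in experiment 19 and 285 and 1423 in experiment 20. Its deletion change was thus near 0 in experiments 18 and 19 and 2.32 in 20. The interaction was 2.37 ± 0.19, and all SEs in this paragraph are those of the fit without the block. Slc44a5 was at 75.4 and 72.8 in experiment 18, 72.7 and 75.8 in experiment 19 and 129 and 342 in experiment 20 (1.40 ± 0.13). In experiments 18 and 19 Pcsk1, Slc44a5 and Tmem255a were dim, near or under the lower quartile of probe sets (89.5 to 93.6). At such levels a change or a spread may go unseen, which limits the reading of their small changes and SEs. Mixl1 and Lhx1 went the other way, with an interaction of -1.54 ± 0.52 and -1.32 ± 0.90. For T, the change was 1.54 in experiment 18, 2.15 in 19 and 0.75 in 20, an interaction of -1.09 ± 0.29 that was not called with the block. Fabp7 (-0.13 ± 0.24), Slit2 (-0.13 ± 0.46) and Sox17 (-0.08 ± 0.59) had interactions smaller than their SEs, which were not called with the block either.

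**Figure D4:**
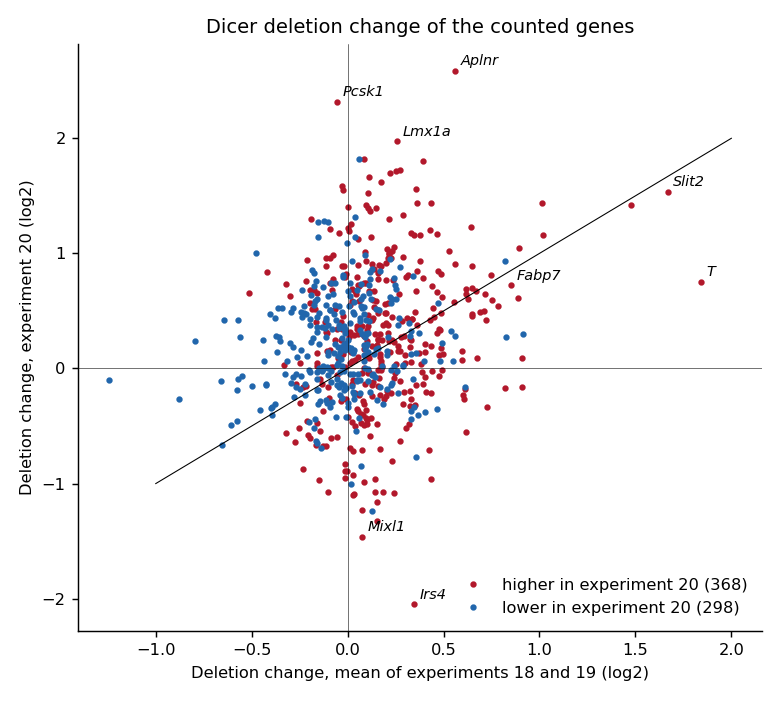
Change with Dicer deletion (log2, deleted minus control) in experiment 20 (vertical axis) against the mean change in experiments 18 and 19 (horizontal axis) for the 368 higher (red) and 298 lower genes (blue), with the line of equal changes. Pcsk1 and Aplnr lie above the line and Mixl1, Irs4 and T below it, while Fabp7 and Slit2 lie near it.

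The difference was spread over the chromosomes except for a shift on chromosome 3, which was largest in 1 stretch. Median differences by chromosome lay between -0.04 on chromosome 7 and 0.02 on chromosome 3 over all genes. Among brighter genes (mean log2 level of at least 8.29, the median), chromosome 3 had a median of 0.13 over 481 genes, against 0.01 over all 9996 such genes. Running medians of 25 such neighbours, in the gene order of GRCm38.p6, were then taken, a step chosen after the values were seen. They reached 0.78 on chromosome 3, and of 9512 windows 39 were at or above 0.5, all of them there. Windows stayed between -0.43 and 0.36 on the other chromosomes. A separate window of chromosome 3, from Slc25a24 to Fnbp1l, had a median of 0.46, with 0.33 between controls and 0.49 between deleted arrays. The same windows lay between -0.22 and 0.24 for experiment 19 minus 18.

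The stretch holds 38 neighbouring genes at or above the median level, from Rfx5 to H2bc18, bounded where the median of 5 neighbours drops under 0.5. The stretch was picked and bounded by these same differences, so the counts that follow describe it and are no evidence for it. In experiment 20, 37 of the 38 had a positive difference and 33 were above all 4 other arrays, against 23.6% of all genes at this level. Their median was 0.76, or 1.70-fold, with quartiles of 0.64 and 0.91. It was 1.70-fold between controls and 1.73-fold between deleted arrays, and 0.07 on the log2 scale for 19 minus 18. They include the splicing factor gene Prpf3 (1.38 ± 0.07), the mitochondrial ribosome gene Mrps21 (1.29 ± 0.11), the splicing gene Sf3b4 (1.24 ± 0.14), the proteasome gene Psmd4 (0.76 ± 0.06), the histone methyltransferase gene Setdb1 (0.78 ± 0.09), the lipid kinase gene Pi4kb (0.85 ± 0.11) and Gabpb2 (1.40 ± 0.13). Mcl1, a survival gene of the BCL2 family, lies among them at 4197 and 4062 in experiment 18, 4444 and 4132 in experiment 19 and 5989 and 7470.0 in experiment 20 (0.67 ± 0.10). Prpf3 was at 1331 and 1233 in experiment 18, 1368 and 1364 in experiment 19 and 3496 and 3369 in experiment 20, with both arrays of experiment 20 at nearly the same level. The 5 that were not above all 4 other arrays were Rfx5 (0.38 ± 0.30), Anxa9 (0.38 ± 0.34), Arnt (0.14 ± 0.14), Otud7b (0.38 ± 0.13) and Sv2a (-0.34 ± 0.23), the 1 with a negative difference. The 12 dimmer genes between the ends had a median of 0.08. The 15 genes on either side had medians of 0.26 and 0.26, and the rest of chromosome 3 had a median of 0.09 over 443 genes. That median pools both sides. Positive differences were more common after the stretch than in the first part of the chromosome. With 7 of the 38 counted as higher, the stretch is a small part of the 368. DNA copy number was not measured, and its part in this stretch was not tested.

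**Figure D5:**
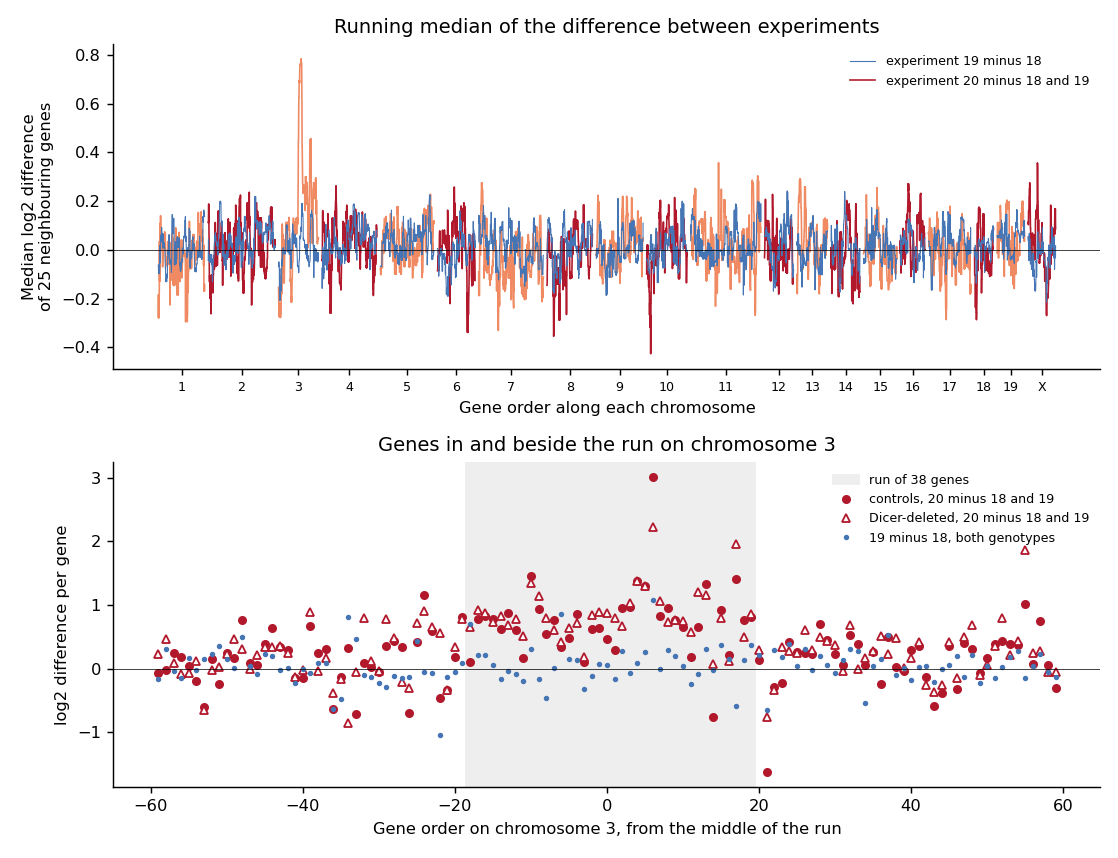
Top: running median of the log2 difference over 25 neighbouring genes along the chromosomes, for experiment 20 minus 18 and 19 (red and orange, alternating by chromosome) and for 19 minus 18 (blue). Bottom: each gene in and beside the stretch on chromosome 3 (grey band, 38 genes), with controls as filled circles and deleted arrays as open triangles. The red points lie around 0.76 in the band, and the highest is Ciart.

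Ciart, a repressor of the circadian clock, had the largest difference in the stretch, at 400.2 and 379 in experiment 18, 759 and 888 in experiment 19 and 4433 and 2714 in experiment 20 or 2.62 ± 0.44. Its promoter is shown because the gene stands out from its neighbours and because E-boxes, bound by the clock factors, occur more than once in it. It comes from RefSeq, GRCm38.p6, chr3:95882179-95882478 on the minus strand, with CACGTG in capitals.
Ciart: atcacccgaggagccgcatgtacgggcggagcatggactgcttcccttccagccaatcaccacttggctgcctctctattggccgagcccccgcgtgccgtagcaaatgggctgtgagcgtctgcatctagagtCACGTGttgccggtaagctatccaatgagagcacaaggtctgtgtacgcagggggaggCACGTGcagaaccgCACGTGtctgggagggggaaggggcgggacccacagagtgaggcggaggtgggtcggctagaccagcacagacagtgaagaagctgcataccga
The letters occur 3 times in this window, and at least once in 7.24% of all 27025 promoters of this length. As CACGTG reads the same on both strands, each place was counted once.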

How the data were processed

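RNA of 6 samples was measured on Affymetrix MoGene 1.0 ST arrays, 1 per sample. RMA and Affymetrix Expression Console 1.2 are the tools named in the submitters' processing notes. The authors deposited a linear intensity per probe set and array, which the file header calls raw, and a log2 value centred on each probe set's median, which equals the log2 intensity minus that median to within 2.31e-06. RMA had already normalized the arrays, so a general shift in RNA content cannot be seen. Annotation is mm9, per the file headers.

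Log2 of the deposited intensity was used. Of 28856 probe sets, 22439 named 1 gene symbol, less 9 with several identifiers, which gave 20193 genes, the brightest probe set standing for each of 1305 genes with more than 1. Symbols were updated through RefSeq GRCm38.p6 (19486 matched, 707 did not), which also gave neighbours and sequences.

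The members, lists and tests were chosen with earlier results of these data known. Differences and SEs come from limma 3.58.1 in R 4.3.3 (lmFit, eBayes). The fits were tried on simulated data whose noise was independent between arrays, unlike these data, and without the replicate block. The 2 tested contrasts were adjusted over all genes with Benjamini-Hochberg at 0.05. Both have 2 residual degrees of freedom. Arrays of 1 experiment deviated together from their group means, with r = 0.833, 0.607 and 0.797 in experiments 18, 19 and 20. The labels call the 3 experiments independent but do not say how RNA was taken in each. The p-values measure only the spread left between these arrays in each fit. Those of experiment 19 against 18 hold no spread between runs. With the replicate block, the spread is that between the deletion changes of experiments 18 and 19. Named genes were the 5 given with the grouping (Mixl1, Sox17, Cfc1, Fabp7, Slit2) and Dicer1, the 15 largest differences each way (passing over clones, small RNAs, receptor segments and pseudogenes), up to 4 counted members per list or else the 2 largest, the 3 smallest p of each tested contrast, and the 5 genes most like Mixl1; others are named for contrast or as list members, chosen after their values were seen. Alternatives were a level filter, other scalings, all probe sets averaged, other folds, 1 genotype or 1 reference experiment, other eBayes settings, the replicate block and leaving out each array. Plots used matplotlib 3.10.9.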

Additional observations from a re-analysis of the deposited data

Results flagged for a closer look

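With the experiment number as a replicate block, limma called a change with Dicer deletion that differed between experiment 20 and experiments 18 and 19 in 381 genes. Without the block it called 0, and the blocked fit has 1 residual degree of freedom, which comes from experiments 18 and 19 alone: experiment 20 gives 1 deletion change with no spread of its own, so these calls have no replicate check there. The 5 with the smallest p in each direction, named after their values were seen, are given here as the log2 change in experiment 20 minus that in 18 and 19, with the blocked SE and limma adjusted p. The more positive values were those of Pcsk1 (2.37 ± 0.16, adjusted p 0.00607), Gm10786 (2.04 ± 0.14, 0.00607), Olfr920 (1.76 ± 0.13, 0.0071), Lmx1a (1.72 ± 0.14, 0.00711) and Tmem255a (1.64 ± 0.13, 0.00711). Lmx1a, a LIM homeobox gene, was at 164 and 189 in experiment 18, 176 and 219 in experiment 19 and 291 and 1146 in experiment 20, so that its deleted array of experiment 20 was above all others. Pcsk1 and Tmem255a were dim in experiments 18 and 19, near the lower quartile of probe sets, where a change or a spread may go unseen.

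The more negative values were those of Irs4 (-2.39 ± 0.14, adjusted p 0.00607), Pga5 (-1.77 ± 0.13, 0.0071), Smad7 (-1.89 ± 0.14, 0.0071), Foxd3 (-1.72 ± 0.14, 0.00711) and Foxq1 (-1.95 ± 0.16, 0.00711) in the same limma fit. Irs4, an insulin receptor substrate gene, was at 279.9 and 337 in experiment 18, 313 and 419 in experiment 19 and 1758 and 425 in experiment 20, with the control array of experiment 20 above all others. Foxd3, a factor of pluripotent cells, was at 599 and 1039 in experiment 18, 352 and 664 in experiment 19 and 910.1 and 499.6 in experiment 20, higher with deletion in experiments 18 and 19 and lower in 20. A second probe set of Foxq1 gave a baseline difference of 0.23 against 1.03.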

How the results depend on the processing

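The counts of 368 higher and 298 lower genes stayed within 1.5 times of these values when quantile normalization was repeated, when arrays were centred, when probe sets were averaged and with either experiment alone as reference. A filter that kept the brighter genes, from the median level up, left 243 higher. A fold of at least 1.5 gave 1094 higher and 1098 lower, and of at least 4 gave 69 and 18. The control arrays alone gave 455 lower genes. Leaving out 1 array gave 332 to 444 higher and 248 to 455 lower, the last without the Dicer-deleted array of experiment 20. For experiment 19 against 18, limma called 0 genes; 115 with that filter, 96 with trend and robust settings, 3698 at an unadjusted p under 0.05, and 0 to 2752 when 1 array was left out, the last without either array of experiment 20. For the interaction, limma called 0 genes, 381 with the experiment number as a replicate block and 958 at an unadjusted p under 0.05; leaving out an array of experiments 18 or 19 gave 0 to 0, and it was not run without an array of experiment 20, which leaves no estimate. The fits without either array of experiment 20 are the same fit, because only the arrays of experiments 18 and 19 then give the spread. The cause of the other shifts was not tested. The median of chromosome 3 went from 0.02 over all genes to 0.13 with it. Of 1070 values of named genes under alternatives 881 moved by less than 1 SD, 189 by more and 0 changed sign among counted genes. List medians, recomputed after the data were seen, moved by less than the SD between genotypes in 306 of 380 cases, and 2 of 38 lists, with medians within 0.01 of 0, changed sign with the scaling. The chromosome 3 stretch lay between 0.74 and 0.79 throughout. Repeated quantile normalization and centring put the median of all genes at -0.01 and -0.03.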

Other observations

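The gene lists described here were put together after the values were seen, so their counts are a description and have no test. They belong to a set of themes that the lists above do not hold. Their base is again the share over all genes, 1.82% counted as higher and 1.48% as lower. Genes of motile cilia and of the node were high in experiment 20: 21 of 40 measured members were counted as higher and 0 as lower, with a median difference of 1.03 that was 0.69 between controls and 1.32 between deleted arrays. Foxj1, the main activator of motile cilia genes, was at 409 and 296 in experiment 18, 511 and 396 in experiment 19 and 712 and 1270.0 in experiment 20, and Noto, a homeobox gene of the node and notochord, was at 119 and 113 in experiment 18, 114 and 112 in experiment 19 and 216 and 487 in experiment 20. Both were above all other arrays in experiment 20, and higher in its deleted array. Structural genes of the ciliary shaft went with them, among them Cfap206 (2.41 ± 0.15), Cfap52 (2.27 ± 0.11), Rsph4a of the radial spokes (2.13 ± 0.25), Dnajb13 (1.78 ± 0.20) and Enkur (1.58 ± 0.23). Others were not counted, such as the dynein genes Dnah5 (0.33 ± 0.10) and Dnah9 (0.13 ± 0.08) and the factor gene Rfx3 (0.12 ± 0.13). The levels summed over the cilia list were 13.08 and 13.07 on the log2 scale in experiment 18, 13.16 and 13.19 in experiment 19 and 13.95 and 14.57 in experiment 20.

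Immediate early genes, which respond within minutes to growth factors or handling, were low. Of 28 measured members 13 were counted as lower and 1, Myc, as higher, with a median of -0.82, where 1.48% of all genes were lower and 1.82% higher. All 28 were at or above the median level, as were 269 of the 298 lower genes. Jun was at 5158 and 5304 in experiment 18, 7012 and 6393 in experiment 19 and 1519 and 2219 in experiment 20, Dusp1 at -1.31 ± 0.21, Zfp36 at -1.46 ± 0.10 and Rhob at -1.75 ± 0.20, while Egr1 (-0.65 ± 0.22) and Ier2 (-0.36 ± 0.12) were not counted. Targets of YAP and TEAD had 4 of 20 lower and 1 higher, with a median of -0.65; beside Ankrd1 and Ccn2 these were Thbs1 (-1.46 ± 0.34) and Nuak2 (-1.04 ± 0.14), and the higher gene was Amot (1.65 ± 0.39). Clock genes had 4 of 15 lower, Bhlhe40 (-1.97 ± 0.23), Bhlhe41 (-1.59 ± 0.35), Per1 and Rora (-1.08 ± 0.27), and 1 higher, Ciart, with a median of -0.39. Of 17 antigen processing genes 4 were higher, the immunoproteasome genes Psmb8 (1.75 ± 0.31), Psmb10 (1.76 ± 0.30) and Psme2 (1.23 ± 0.31) and the peptidase gene Erap1 (1.49 ± 0.43), and 1 was lower, H2-Ab1 (-1.58 ± 0.47), with a median of 0.46. The time of day and the handling of the cultures before lysis are not stated in the sources used here, and their part was not tested.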
